A study of Mus musculus with 6 samples.

Results

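The genes described here encode respiratory complex I, in 2 genomes. Of the 35458 mouse genes with reads summed from the transcript estimates, 42 were taken by name as complex I subunits: 35 nuclear genes and 7 genes of the mitochondrial genome. All 42 passed the filter on low counts, so none is missing from the counts below.

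The libraries came from hearts of fetal FVB/NJ mice, wild type in both groups, with male and female fetuses pooled. Their mothers, 10 weeks old, were exposed in a whole-body chamber from gestational day 5. In both groups exposure lasted 360 minutes on each of 6 days within an 8-day span. The sham group (3 libraries) breathed filtered room air. The nano-TiO2 group (3 libraries) breathed an aerosol of engineered titanium dioxide nanoparticles at a target of 12 mg/m3. Fetal hearts were taken on gestational day 15. RNA was fragmented before library construction. The study also enriched methylated RNA with an antibody to m6A, a methyl mark on RNA; the libraries used here were made without that enrichment. The labels do not say how many hearts or litters each pool held, so p-values measure the spread between pools. Each library held between 12881945 and 22720009 estimated reads.

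Complex I, NADH:ubiquinone oxidoreductase, takes electrons from NADH, passes them along a flavin and a chain of iron-sulfur clusters to ubiquinone, and pumps protons across the inner mitochondrial membrane. Its catalytic core is split between the genomes: the peripheral arm that carries the flavin and the iron-sulfur clusters is nuclear encoded, and the membrane arm that pumps protons is built around subunits made inside the mitochondrion. Supernumerary subunits, all nuclear encoded, surround the core and are needed for its assembly and stability. Heart muscle comes to rely on oxidative metabolism as it matures, and complex I is abundant there.

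Nuclear complex I RNA was lower in the nano-TiO2 hearts on the TMM scale (trimmed mean of M-values) used throughout, whereas on log2(TPM + 1) its median difference was 0.019, beside 0.47 for all genes. TPM scale reads by transcript length and then to a fixed total per library. CPM, used below, scale reads to each library's total multiplied by its TMM factor, without regard to length. Statements below on whether groups overlapped in CPM hold on that scale. On the TMM scale, edgeR's quasi-likelihood test ran across 13930 genes, and 23 of 35 nuclear members fell at an adjusted p under 0.05, against 12.8% of all genes tested called lower. None of the 35 rose, against 15.5% of all genes called higher. At an unadjusted p under 0.05 there were 31 lower and 0 higher members, but the share of all genes at that threshold was not worked out. DESeq2 called 31 lower and 0 higher, against 17.2% and 18.6% of all genes. The median log2 fold change of the 35, nano-TiO2 over sham, was -0.65, and that of all genes tested was -0.01. Log2 fold changes of the 23 ran from -0.86 to -0.49. In 32 of the 35, every nano-TiO2 library lay below every sham library, which held for 22.4% of all genes tested. In bulk RNA, fewer cells of a type and less RNA per cell cannot be told apart.

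The 7 mitochondrial members had a median of -0.72. By edgeR 0 were called, against 12.8% of all genes called lower and 15.5% higher. The count at an unadjusted p under 0.05 was 1 (mt-Nd1), again without a share of all genes worked out. With limma-voom 0 were called, against 12.9% of all genes called lower and 15.1% higher. DESeq2 called 2 lower (mt-Nd1 and mt-Nd4) against 17.2% of all genes.

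**Figure D1:**
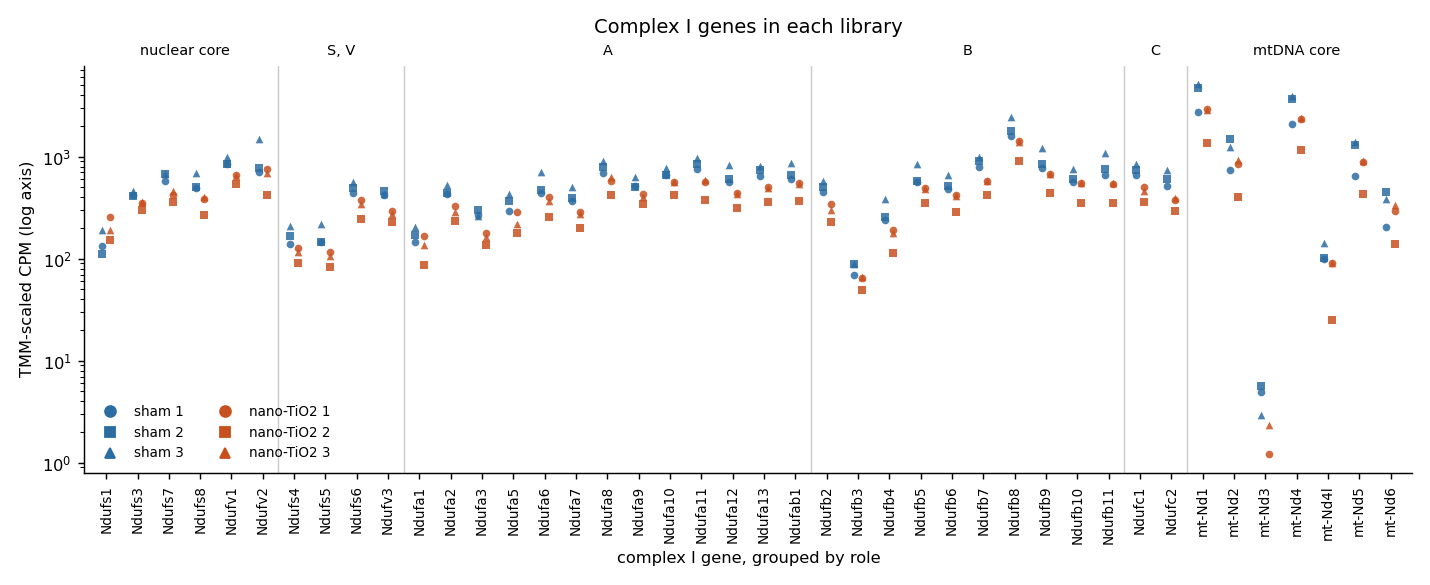
Normalised level of each complex I gene in each library, as TMM-scaled CPM on a log axis, with sham libraries in blue and nano-TiO2 libraries in orange. Library nano-TiO2 2 is lowest for 34 of 35 nuclear genes and 7 of 7 mt-Nd genes; mt-Nd3 in that library is listed at 0 and not drawn.

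The nuclear core subunits form the electron path. Ndufv1 carries the flavin that accepts electrons from NADH, and Ndufv2 sits beside it with an iron-sulfur cluster. Ndufv1 stood at 843, 853 and 993 CPM in sham 1, 2 and 3 and at 657, 538 and 649 CPM in nano-TiO2 1, 2 and 3. It fell, with a log2 fold change of -0.54 ± 0.13 (SE, edgeR adjusted p = 0.0209), and the groups did not overlap. Ndufv2 stood at 713, 771 and 1497 CPM in sham and at 754, 420 and 695 CPM in nano-TiO2. Sham 3 was far above the other libraries, the groups overlapped, and the log2 fold change of -0.67 ± 0.32 (SE, edgeR adjusted p = 0.148) did not pass.

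Ndufs7 and Ndufs8 hold the iron-sulfur clusters nearest ubiquinone. Ndufs7 gave 579, 674 and 673 CPM in sham and 423, 363 and 457 CPM in nano-TiO2, so that it fell by 35.4% (log2 fold change -0.63 ± 0.13 SE, edgeR adjusted p = 0.0132). Ndufs8 gave 492, 507 and 688 CPM in sham and 381, 268 and 400 CPM in nano-TiO2, with a log2 fold change of -0.69 ± 0.19 (SE, edgeR adjusted p = 0.0316). Neither gene's groups overlapped. Ndufs3, a core subunit of the same arm without a cluster, ran at 420, 411 and 465 CPM in sham and 355, 297 and 363 CPM in nano-TiO2. Its groups were also apart, yet the log2 fold change of -0.35 ± 0.13 (SE, edgeR adjusted p = 0.066) missed the threshold.

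Ndufs1, the largest subunit of the peripheral arm and the carrier of several iron-sulfur clusters, went the other way in value. It stood at 135, 110 and 192 CPM in sham and at 257, 154 and 190 CPM in nano-TiO2, with a log2 fold change of 0.46 ± 0.24 (SE, edgeR adjusted p = 0.185). The groups overlapped, since sham 3 exceeded 2 of the nano-TiO2 libraries. It was the only nuclear member above 0. Its transcripts, 2458 bases long on average, are also the longest of the 35. Without sham 3 it was called higher (log2 fold change 0.74, edgeR adjusted p = 0.0404).

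All 4 supernumerary subunits of the S and V series fell. Ndufv3, an accessory subunit at the flavin end, was at 417, 456 and 430 CPM in sham and at 297, 231 and 275 CPM in nano-TiO2. Its sham libraries were close together, and its log2 fold change was -0.70 ± 0.13 (SE, edgeR adjusted p = 0.00956). Ndufs5, a small subunit on the intermembrane side, was at 146, 146 and 217 CPM in sham and at 116, 82.2 and 108 CPM in nano-TiO2, with -0.73 ± 0.20 (SE, edgeR adjusted p = 0.0278). Ndufs4, whose loss causes Leigh-like disease in mice and people, was at 140, 165 and 211 CPM in sham and at 129, 90.1 and 117 CPM in nano-TiO2. Its log2 fold change was -0.62 ± 0.19 (SE, edgeR adjusted p = 0.0407), and the lowest sham and highest nano-TiO2 values nearly met.

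In the A series, 9 of 13 genes fell on the TMM scale, beside 12.8% of all genes called lower. The other 4 had log2 fold changes between -0.65 and -0.41. Ndufa3, a small membrane-arm subunit, gave 269, 302 and 261 CPM in sham and 179, 135 and 163 CPM in nano-TiO2. It fell by 42.6% (log2 fold change -0.80 ± 0.14 SE, edgeR adjusted p = 0.00852), which is the smallest p of the 42. Ndufa2, a peripheral-arm subunit with a thioredoxin-like fold, gave 434, 439 and 524 CPM in sham and 332, 234 and 290 CPM in nano-TiO2 (log2 fold change -0.71 ± 0.16 SE, edgeR adjusted p = 0.0153). Both had separate groups. Ndufa1, an X-linked subunit needed for assembly of the membrane arm, had the largest p of the series. It gave 145, 172 and 203 CPM in sham and 168, 86.9 and 136 CPM in nano-TiO2, which overlapped (log2 fold change -0.41 ± 0.23 SE, edgeR adjusted p = 0.219).

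In the B series, whose products line the distal membrane arm, 5 of 10 genes fell on the TMM scale, beside 12.8% of all genes. Ndufb2 was at 448, 502 and 573 CPM in sham and at 340, 231 and 302 CPM in nano-TiO2 (log2 fold change -0.80 ± 0.17 SE, edgeR adjusted p = 0.0129). Ndufb7, a subunit on the intermembrane face, was at 798, 914 and 1004 CPM in sham and at 580, 423 and 584 CPM in nano-TiO2 (log2 fold change -0.77 ± 0.16 SE, edgeR adjusted p = 0.0129). For both, the lowest sham library lay well above the highest nano-TiO2 library. Ndufb10 was at 567, 604 and 749 CPM in sham and at 549, 353 and 557 CPM in nano-TiO2. It did not pass (log2 fold change -0.40 ± 0.20 SE, edgeR adjusted p = 0.163), and 2 of its nano-TiO2 libraries were within a few percent of sham 1.

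Both C-series genes, which encode small membrane-arm subunits, fell on the TMM scale, beside 12.8% of all genes called lower. Ndufc1 went from 666, 736 and 840 CPM in sham to 502, 360 and 465 CPM in nano-TiO2 (log2 fold change -0.76 ± 0.16 SE, edgeR adjusted p = 0.013). Ndufc2 went from 519, 602 and 743 CPM in sham to 373, 294 and 395 CPM in nano-TiO2 (log2 fold change -0.81 ± 0.17 SE, edgeR adjusted p = 0.0133). Per length, Ndufb8 had the highest level of the nuclear members, at 2851 ± 769 TPM (SD, n = 3) in sham. Ndufs1 had the lowest, at 47.6 ± 17.9 TPM (SD, n = 3).

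When each library was left out in turn, 6 of the 23 genes were called in all 6 fits: Ndufa3, Ndufb2, Ndufb7, Ndufc1, Ndufc2 and Ndufv3. The share of all genes called in all 6 fits was not worked out, so this count has no background beside it. With sham 1 omitted, 17 nuclear members were called lower, against 3.92% of all genes. Omitting sham 2 gave 10 (2.93% of all genes) and omitting sham 3 also gave 10 (8.0%). Omitting nano-TiO2 1 gave 11 (3.04%), omitting nano-TiO2 2 gave 14 (14.6%), and omitting nano-TiO2 3 gave 8 (3.87%). Most of the 35 genes shared their highest and lowest library on the TMM scale. Sham 3 was the highest library for 30 of them and nano-TiO2 2 the lowest for 34. How many of all genes tested have this pattern was not worked out. Some genes outside complex I, such as Tnni1, had it too, and others, such as Actc1, did not.

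**Figure D2:**
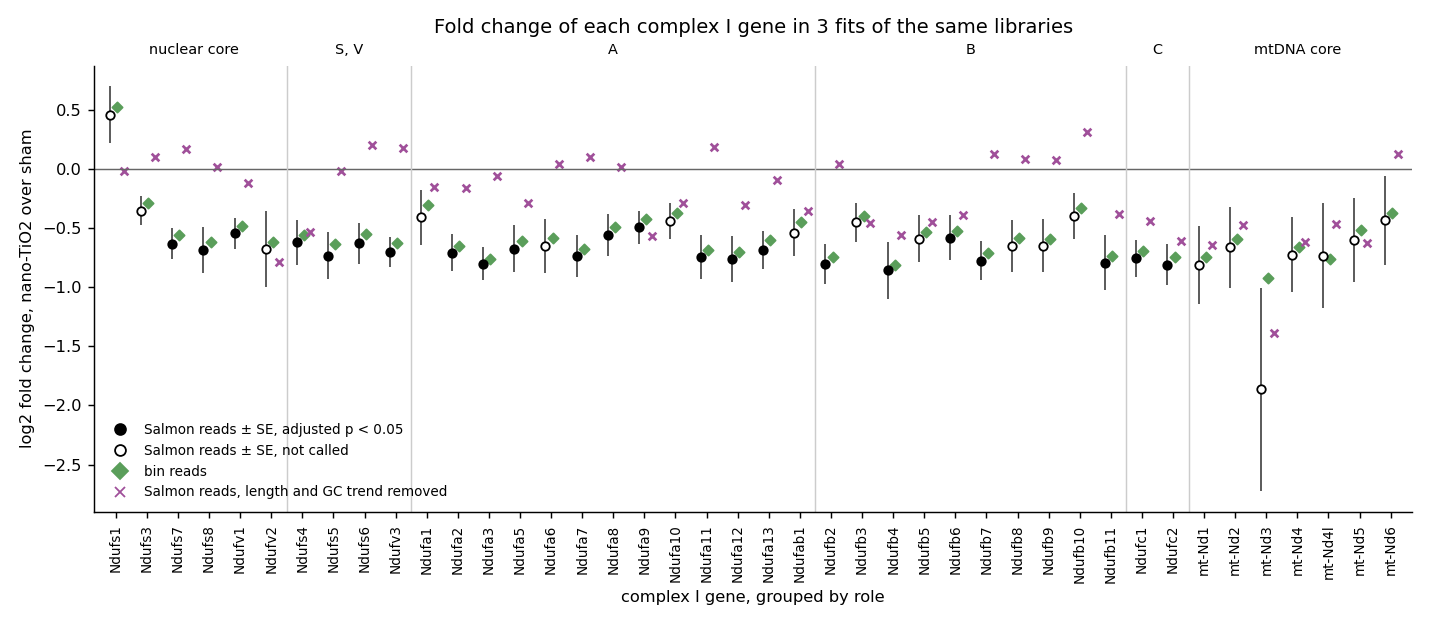
Log2 fold change of each complex I gene, nano-TiO2 over sham, from Salmon reads with its standard error (circles, filled where the adjusted p is under 0.05), from the reads of the bin table (diamonds) and from Salmon reads after the trend with transcript length and GC was removed (crosses). On this TMM scale, circles and diamonds lie below 0 for all genes but Ndufs1, whereas 14 of the 35 nuclear crosses lie above 0.

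A second deposited table counts reads in bins along each gene and gave nearly the same picture. From its reads, 19 of 35 nuclear members were called lower by edgeR, against 11.2% of 18850 genes, with a median of -0.59. The Salmon to bin read ratio lay between 0.865 and 1.47 in all libraries for 39 of the 42 genes. The mean position of reads along the genes, from 0 at the 5′ end to 1 at the 3′ end, did not separate the groups. Its median over the 35 nuclear genes was 0.473, 0.483 and 0.464 in sham and 0.475, 0.470 and 0.482 in nano-TiO2.

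The change in nuclear complex I ran together with transcript length. The median length of the 35 genes was 680 bases, against 2381 bases for all genes tested, and 33 of the 35 were among the 20% of genes with the shortest transcripts. In that class, 33.2% of genes were called lower and 1.11% higher, with a median log2 fold change of -0.43. The 20% with the longest transcripts held 0 members. Of that class, 2.48% were called lower and 38.9% higher, and the median was 0.61. Across the 35 members, Pearson's r between log2 length and log2 fold change was 0.60 and Spearman's rho 0.39. Without Ndufs1, r was 0.36 and rho 0.34 over 34 genes, which share the same 6 libraries.

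When each library's trend with length and GC content was removed, the median of the 35 moved to -0.091, beside -0.032 for all genes, with 21 of 35 below 0. edgeR then called 3 members lower, against 2.19% of all genes. These were Ndufs4 (log2 fold change -0.53, adjusted p = 0.0355), Ndufc2 (-0.61, adjusted p = 0.0391) and Ndufa9 (-0.57, adjusted p = 0.0441), a peripheral subunit near the ubiquinone site. Ndufs1 moved from 0.46 to -0.020. The mitochondrial members kept a median of -0.62, with 6 of 7 below 0 and 0 called. Salmon's deduction for fragment length, the median of length minus effective length over transcripts of 500 to 700 bases, was 111, 107 and 121 bases in sham and 109, 118 and 114 bases in nano-TiO2, so it overlapped. What produced the length trend was not tested.

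**Figure D3:**
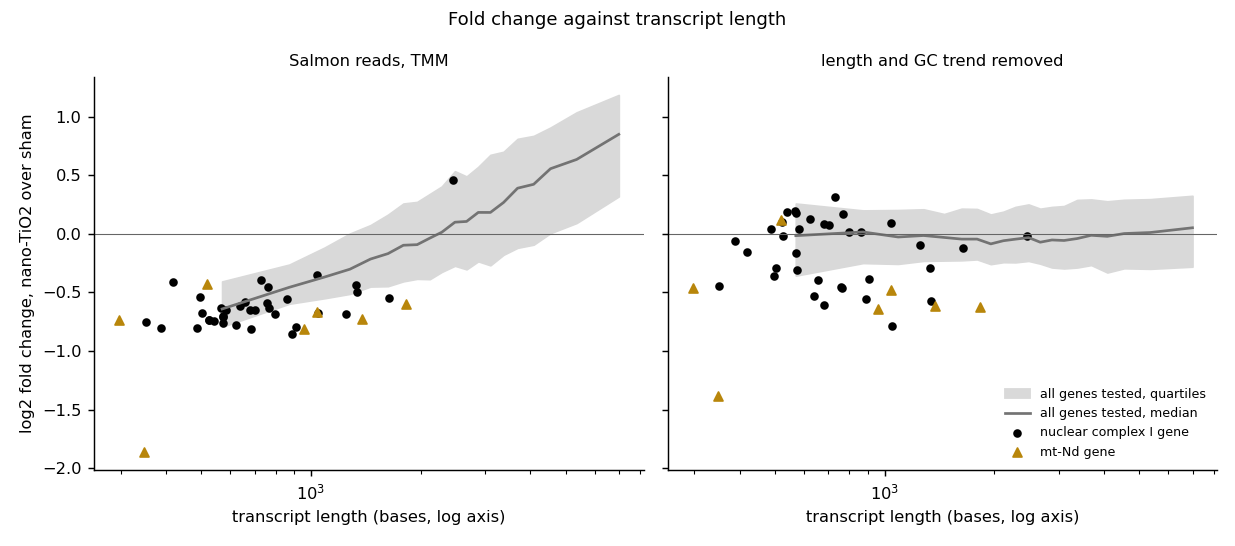
Log2 fold change against transcript length for the complex I genes and for all genes tested (grey line, median; grey band, quartiles, in 20 groups of equal size by length), before and after the trend with length and GC was removed. Before, nuclear members sit at the short end, where the grey median is also below 0; after, their median is -0.091 and that of the mt-Nd genes -0.62.

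As a plain share of reads, the nuclear members did not separate the groups. Their share was 1.70%, 1.55% and 2.19% for sham 1, 2 and 3, against 1.66%, 1.32% and 1.67% for nano-TiO2 1, 2 and 3. Sham 2 lay below 2 nano-TiO2 libraries. The 11 erythroid genes on the marker list, haemoglobins and other red-cell genes, varied more. Their share was 12.5%, 23.5% and 10.6% for the sham libraries, against 10.2%, 5.70% and 9.46% for the nano-TiO2 libraries. Of all other reads, the nuclear members made up 1.94%, 2.02% and 2.45% for the sham group, against 1.85%, 1.40% and 1.85% for the nano-TiO2 group, which did not overlap. Scaled to library totals alone, the median of all genes was 0.41 and that of the nuclear members -0.25, so they lay -0.66 from it. On that scale edgeR called 0 of 35 nuclear members lower, against 0.359% of all genes. At an unadjusted p under 0.05, 4 were lower, as were 1.16% of all genes. Ndufs1 was called higher (log2 fold change 0.85, edgeR adjusted p = 0.0137) against 30.7%. On log2(TPM + 1), limma called 0 nuclear members lower, against 0.218% of all genes. At an unadjusted p under 0.05 it had 0 lower, against 0.528% of all genes. It called Ndufs1 higher, against 35.6%. On that scale 34 of the 35 lay below the median of all genes, and the members' median lay -0.46 from it. On log2(TPM + 0.1), limma also called 0 lower, against 0.151%, and the members' median lay -0.54 from that of all genes.

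Other tissues also moved with single libraries. Hepatocyte genes (9 genes) took 0.0851% of reads in sham 2 and at most 0.00755% elsewhere. Lung epithelium genes (6 genes) took 0.169% in nano-TiO2 3 and at most 0.0361% elsewhere. Cardiomyocyte genes (10 genes) were high throughout, at 4.70%, 4.31% and 5.11% of sham reads, against 4.94%, 4.40% and 4.94% of nano-TiO2 reads. Of these, 5 of 10 fell (Tnni1, Actc1, Myl2, Myl3 and Nkx2-5) and 0 rose, beside 12.8% and 15.5% of all genes, with a median of -0.43. That median was -0.020 scaled to library totals and 0.28 on log2(TPM + 1), beside 0.41 and 0.47 for all genes. None of these 5 was called on either of those scales. After correction for length and GC, edgeR called 0 cardiomyocyte genes lower and 2 higher (Myl7 and Nppa), beside 2.19% and 1.44% of all genes. Of the erythroid genes 6 of 11 fell on the TMM scale, beside 12.8% of all genes. From bin reads 3 were called lower, beside 11.2%, and on log2(TPM + 1) 3, beside 0.218%. Scaled to library totals or after correction for length and GC, edgeR called 0, beside 0.359% and 2.19% of all genes called lower. Without sham 2 and nano-TiO2 3 together, edgeR called 0 of the 14021 genes tested, while the median of the nuclear members was -0.71 and 25 of the 35 were lower at an unadjusted p under 0.05, as were 7.92% of all genes. The embryonic globins Hbb-y, Hba-x and Hbb-bh1 divided the libraries across the groups, being high in sham 1, sham 2 and nano-TiO2 2. Hbb-y stood at 4344, 2298 and 108 CPM in sham and at 60.4, 3160 and 41.4 CPM in nano-TiO2. Sham 3, low in these globins, was the highest library for 30 of the 35 nuclear members, and nano-TiO2 2 the lowest for 34. The part of this division, or of other cell types, in the complex I values was not tested.

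The mitochondrial core subunits make up the membrane arm. mt-Nd2, mt-Nd4 and mt-Nd5 are the antiporter-like pumping subunits, mt-Nd1 contributes to the ubiquinone site, and mt-Nd3, mt-Nd4l and mt-Nd6 are small membrane subunits. mt-Nd1 stood at 2729, 4707 and 5139 CPM in sham and 2919, 1354 and 2881 CPM in nano-TiO2 (log2 fold change -0.81 ± 0.33 SE, edgeR adjusted p = 0.0989). mt-Nd4 stood at 2096, 3702 and 3912 CPM in sham and 2347, 1150 and 2381 CPM in nano-TiO2 (log2 fold change -0.72 ± 0.32 SE, edgeR adjusted p = 0.123). In both genes sham 1 lay among the nano-TiO2 libraries and nano-TiO2 2 stood apart at the bottom.

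mt-Nd2 was at 742, 1499 and 1231 CPM in sham and 853, 407 and 932 CPM in nano-TiO2 (log2 fold change -0.66 ± 0.34 SE, edgeR adjusted p = 0.181). mt-Nd5 was at 641, 1309 and 1408 CPM in sham and 884, 433 and 899 CPM in nano-TiO2 (log2 fold change -0.60 ± 0.35 SE, edgeR adjusted p = 0.234). In both genes nano-TiO2 2 was lowest and sham 1 again lay among the nano-TiO2 libraries. mt-Nd6, the only one of the 7 encoded on the opposite strand of the mitochondrial genome, was at 203, 453 and 381 CPM in sham and 294, 138 and 337 CPM in nano-TiO2 (log2 fold change -0.43 ± 0.38 SE, edgeR adjusted p = 0.419). It had the largest p of the 7.

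The values of mt-Nd3 and mt-Nd4l depend on how reads were divided between them and near-identical pseudogenes. In the GENCODE M21 annotation of GRCm38, copies of mt-Nd3, mt-Nd4l and mt-Nd4 lie side by side on chromosome 1 within 1585 bases. The start of mt-Nd3 and of its copy Gm28438 is shown because 1 base in it is the only difference over the 345 bases that the copy shares. It is T3C, with positions counted from the 5′ end of mt-Nd3, and the capital marks it. The windows are chrM:9459-9491, plus strand, and chr1:24613087-24613119, minus strand.
mt-Nd3: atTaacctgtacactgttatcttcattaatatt
Gm28438: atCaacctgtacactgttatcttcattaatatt
A read from any other place in those 345 bases has the same letters in both. Salmon gave mt-Nd3 105, 75 and 58 reads for the sham libraries, against 20, 0 and 57 for the nano-TiO2 libraries. It gave the copy 2102, 2188 and 2257 reads for sham, against 1393, 717 and 1494 for nano-TiO2, which is 97.0% of the pair's total.

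Scaled as CPM, mt-Nd3 itself was at 4.96, 5.61 and 2.95 in sham and at 1.21, 0 and 2.36 in nano-TiO2 (log2 fold change -1.86 ± 0.86 SE, edgeR adjusted p = 0.139). With each member's copies added to it, mt-Nd3 had a log2 fold change of -1.01 (edgeR adjusted p = 0.0243). It was the only call among the 7 mitochondrial members on that scale, where 12.8% of all genes were called lower. In the bin table it had -0.92 (edgeR adjusted p = 0.0296), again the only call among the 7, beside 11.2% of all genes.

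mt-Nd4l and its copy Gm10222 are identical over 294 bases, and the copy took 65.6% of the pair's Salmon reads. mt-Nd4l was at 99.9, 102 and 143 CPM in sham and at 90.8, 25.3 and 91.2 CPM in nano-TiO2. Its groups were apart by a narrow gap and its log2 fold change was -0.74 ± 0.44 (SE, edgeR adjusted p = 0.251). With the copies added, its log2 fold change was -0.85 (edgeR adjusted p = 0.0717). The end of mt-Nd4l also overlaps the start of mt-Nd4, since both are read from a shared transcript in overlapping frames. The last 30 bases of mt-Nd4l (chrM:10144-10173, plus strand) and the first 30 of mt-Nd4 (chrM:10167-10196, plus strand) are given to show the 7 shared bases, in capitals.
mt-Nd4l: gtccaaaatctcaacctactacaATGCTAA
mt-Nd4: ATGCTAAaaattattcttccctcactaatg
A read longer than these 7 bases also holds letters from outside the overlap. mt-Nd4 has a copy that is identical over 876 bases, Gm28439, to which Salmon gave 0 reads in all 6 libraries.

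Among nuclear members, Ndufb4 has the copy that took the largest share. Its processed pseudogene Ndufb4c, on chromosome 15, is identical over 390 bases and received 62.1% of the pair's Salmon reads. The copies of Ndufs5, Ndufab1 and Ndufa12 received 39.1%, 30.5% and 26.3%. Ndufb4 itself fell, from 237, 256 and 386 CPM in sham to 190, 115 and 180 CPM in nano-TiO2 (log2 fold change -0.86 ± 0.24 SE, edgeR adjusted p = 0.0317), and with its copy added it still did (-0.86, adjusted p = 0.0317). In all, 13 members had 14 such copies at 95% identity or more over at least 200 bases. With all copies added, the number of nuclear members called lower stayed at 23, beside 12.8% of all genes.

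**Figure D4:**
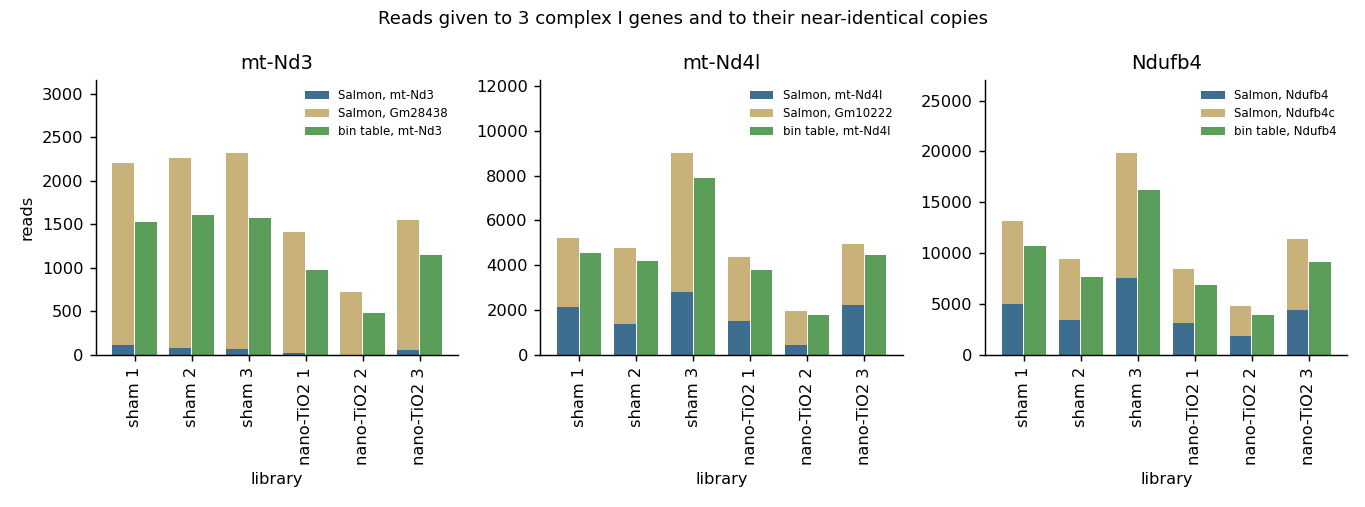
Reads given by Salmon to mt-Nd3, mt-Nd4l and Ndufb4 (blue) and to the near-identical copy of each (tan, stacked), beside the reads of the same gene in the bin table (green), per library. The copy holds 97.0%, 65.6% and 62.1% of the Salmon reads of the pairs. Reads are not scaled for library depth: nano-TiO2 2 has the fewest reads in every panel and is also the library with the fewest estimated reads in total.

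The balance between the genomes varied more within the groups than between them. Summed reads of the 7 mt-Nd genes, divided by those of the 35 nuclear genes, came to 0.360, 0.597 and 0.489 in sham 1, 2 and 3 and to 0.487, 0.333 and 0.509 in nano-TiO2 1, 2 and 3. The means were 0.482 ± 0.119 and 0.443 ± 0.0959 (SD, n = 3 each). The groups overlapped, and the mean log2 ratio differed by -0.12 (nano-TiO2 minus sham), against a within-group SD of 0.35. The sign turned without sham 2 (0.05) or without nano-TiO2 2 (0.08). In summed TPM, which corrects for length, the ratio was 0.198, 0.306 and 0.278 in sham and 0.266, 0.172 and 0.263 in nano-TiO2.

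**Figure D5:**
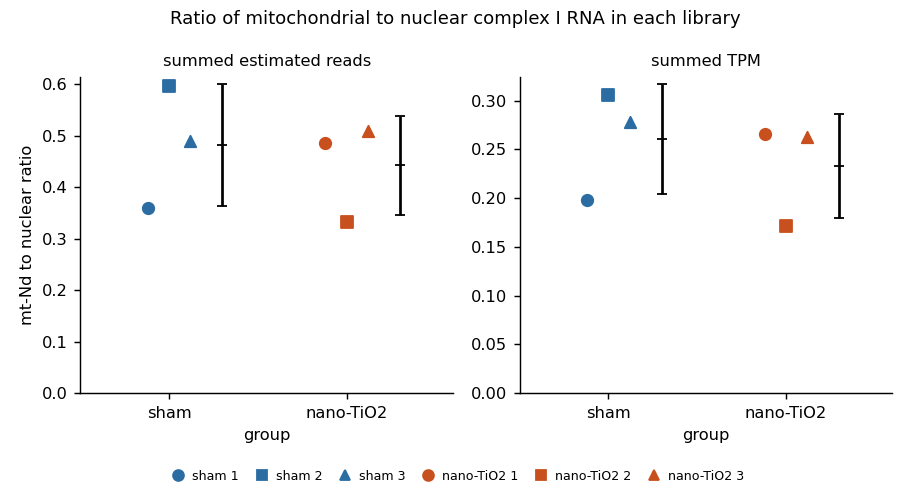
Ratio of summed mt-Nd RNA to summed nuclear complex I RNA in each library, from estimated reads and from TPM, with the mean and SD of 3 libraries per group (bars). The lowest value in each group is sham 1 (0.360) and nano-TiO2 2 (0.333) from reads, and the groups overlap on both scales.

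The other proteins of the mitochondrial genome, subunits of complexes III, IV and V, gave 2 calls of 6, both lower, beside 12.8% of all genes, with a median of -0.75. Neither call held scaled to library totals (median -0.34), on log2(TPM + 1) (-0.14) or after correction for length and GC (-0.57), where 0 of 6 were called. The medians of all genes on these scales were 0.41, 0.47 and -0.032. mt-Co3, a core subunit of cytochrome c oxidase, stood at 5907, 5680 and 7538 CPM in sham and 4313, 2718 and 3853 CPM in nano-TiO2 (log2 fold change -0.81 ± 0.20 SE, edgeR adjusted p = 0.0205). mt-Atp8, a small subunit of the ATP synthase, had a log2 fold change of -0.80 ± 0.24 (SE, edgeR adjusted p = 0.0413). For both, the groups did not overlap. The other 4 were not called: mt-Co1 at -0.66 (adjusted p = 0.0923), mt-Co2 at -0.69 (0.102), mt-Cytb at -0.70 (0.141) and mt-Atp6 at -0.91 (0.0662).

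Complex I is put together by assembly factors that are not part of the finished enzyme. Of 20 tested, 4 fell and 0 rose on the TMM scale, beside 12.8% and 15.5% of all genes, with a median of -0.32. The 4 calls were lost scaled to library totals (median 0.087, beside 0.41 for all genes) and on log2(TPM + 1) (median 0.40, beside 0.47). On each of these scales 0 were lower and 2 higher, beside 30.7% and 35.6% of all genes called higher. Ndufaf8, a partner of the assembly factor Ndufaf5, went from 68.3, 72.5 and 71.9 CPM in sham to 50.0, 39.5 and 47.1 CPM in nano-TiO2 (log2 fold change -0.64 ± 0.13 SE, edgeR adjusted p = 0.0128). Dmac2, which acts in distal membrane arm assembly, went from 84.2, 88.6 and 90.5 CPM to 60.6, 62.6 and 58.0 CPM (log2 fold change -0.54 ± 0.11 SE, edgeR adjusted p = 0.0128). On this scale the groups did not overlap in either gene. After correction for length and GC, Ndufaf8 stood at 0.33 (edgeR adjusted p = 0.201) and Dmac2 at -0.10 (edgeR adjusted p = 0.68). With that correction 2 other factors were called lower, Nubpl and Tmem126b, beside 2.19% of all genes. Ecsit and Dmac1 were the other 2 that fell, at -0.46 and -0.41. Ndufaf7, a methyltransferase that acts on the peripheral arm, had the largest p (log2 fold change -0.03 ± 0.18 SE, edgeR adjusted p = 0.924).

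Of 21 genes for mitochondrial transcription and RNA processing, 2 fell and 2 rose on the TMM scale, beside 12.8% and 15.5% of all genes, with a median of 0.055. Scaled to library totals 0 were lower and 7 higher (median 0.46), beside 30.7% higher and a median of 0.41 for all genes. On log2(TPM + 1) 0 were lower and 11 higher (median 0.67), beside 35.6% higher and 0.47 for all genes. After correction for length and GC edgeR called 0 in either direction (median -0.15), beside 2.19% and 1.44% of all genes. Slirp, which binds and stabilises mitochondrial mRNA, fell from 75.1, 75.8 and 70.9 CPM to 47.4, 42.9 and 39.7 CPM (log2 fold change -0.77 ± 0.12 SE, edgeR adjusted p = 0.00789). Its binding partner Lrpprc rose, from 37.4, 31.3 and 43.2 CPM to 72.9, 48.8 and 57.0 CPM (log2 fold change 0.67 ± 0.19 SE, edgeR adjusted p = 0.0312). The 2 partners thus had opposite directions, and their transcripts are 492 and 4158 bases long. After correction for length and GC, Slirp was at -0.60 (adjusted p = 0.0833) and Lrpprc at -0.01 (adjusted p = 0.984). Hsd17b10, a component of mitochondrial RNase P, fell (-0.56 ± 0.17 SE, edgeR adjusted p = 0.0416), and Fastkd1, of the FASTK family of mitochondrial RNA-binding proteins, rose (1.07 ± 0.23 SE, edgeR adjusted p = 0.0144). Tfb1m, a mitochondrial rRNA methyltransferase, had the largest p (-0.01 ± 0.21 SE, edgeR adjusted p = 0.981).

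Among 9 nuclear regulators of respiratory genes, 0 fell and 4 rose, beside 12.8% and 15.5% of all genes, with a median of 0.56. Scaled to library totals and on log2(TPM + 1), 6 were called higher on each scale, beside 30.7% and 35.6% of all genes. Yy1, a zinc finger factor, went from 11.2, 14.4 and 10.1 CPM in sham to 21.8, 20.4 and 29.4 CPM in nano-TiO2 (log2 fold change 1.01 ± 0.21 SE, edgeR adjusted p = 0.0129). Gabpb2, a subunit of the ETS factor GABP, went from 5.15, 3.89 and 5.34 CPM to 13.4, 9.12 and 10.1 CPM (log2 fold change 1.17 ± 0.23 SE, edgeR adjusted p = 0.0115). Gabpa, its DNA-binding partner, and the coactivator Ppargc1a also rose, at 0.89 and 0.98. Nrf1, the nuclear respiratory factor, was at 35.9, 27.5 and 29.8 CPM in sham and at 25.3, 34.9 and 29.4 CPM in nano-TiO2, which overlapped (log2 fold change -0.06 ± 0.18 SE, edgeR adjusted p = 0.833). After correction for length and GC, edgeR called 0 of the 9 in either direction, and the median was 0.19. The 4 that rose have transcripts of 4494 to 6309 bases.

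Promoters of the nuclear members, from 250 bases before to 50 after the gene start (RefSeq, GRCm38.p6), were found for 32 of the 35 genes. Each was searched on both strands for 3 motifs, whose letters are common consensus forms set for the search and come from no deposited file. The YY1 motif, AANATGGC, was in 12 of 32 genes and in 6.05% of all 32851 promoters. Members were counted per gene, where a match in any promoter was enough and 2 genes had several. The share of all was counted per promoter. The GABPA motif CCGGAAGT was in 1 of 32 (Ndufs3) and 3.89% of all, and the ESRRA motif TCAAGGTCA in 0 of 32 and 0.423% of all. In 8 of the 12 genes with the YY1 motif, its ATG is the annotated start codon, so these letters also belong to the start of the protein. Windows of 30 bases are shown for Ndufa3 and Ndufc1, which hold the YY1 motif and fell in all 6 leave-one-out fits. Capitals mark the motif on the gene's strand. The windows are chr7:3617384-3617413 (plus strand) and chr3:51408915-51408944 (minus strand).
Ndufa3, YY1: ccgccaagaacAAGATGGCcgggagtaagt
Ndufc1, YY1: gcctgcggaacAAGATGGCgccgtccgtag
The median log2 fold change was -0.64 in the 12 genes with the YY1 motif and -0.67 in the 20 without it. A match is a description of the sequence, and binding was not measured here.

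The transcript mix within the genes was also given by Salmon. In 25 of 35 nuclear members, coding transcripts held at least 95% of reads in every library. Ndufs4 was the most different, with a coding share of 9.90%, 7.21% and 13.3% in sham and 9.57%, 10.8% and 10.6% in nano-TiO2, and most of its reads went to a transcript annotated as a target of nonsense-mediated decay. Ndufa3 had coding shares of 47.3%, 42.1% and 46.6% in sham and 43.9%, 44.4% and 41.5% in nano-TiO2. In both genes the shares overlapped between the groups while the summed reads fell.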

How the data were processed

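RNA of 6 pooled fetal heart input libraries was sequenced, 3 sham and 3 nano-TiO2, grouped by the labels. The deposited estimated counts and TPM per transcript, with lengths and effective lengths, are Salmon output per the file headers, and the submitters' processing notes name Salmon 1.5.2, HISAT2 2.2.1, DESeq2 1.34.0 and GRCm39. The sources used here do not name the transcript annotation, the strand setting or the tool that counted bins. The deposited signal per bin is reads divided by 1 size factor per library, and 100% of values in each library came out whole within 0.001 of a read once divided by the smallest value, so the whole reads were used. Transcripts were matched to GENCODE M21 (GRCm38): 115685 of 116747, the rest holding 0.597% to 0.770% of reads. Estimated counts were summed per gene and rounded.

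The comparison was edgeR 4.0.16's quasi-likelihood test (TMM, filterByExpr, group only, robust), two-sided, with Benjamini-Hochberg adjustment over all genes tested. The trend fit took each library's deviation as a smooth of log2 length and GC (mgcv 1.9.3). Alternatives used DESeq2 1.42.0, limma 3.58.1 (voom, and log2(TPM + 1) or log2(TPM + 0.1) at a mean TPM of at least 1), other scalings and filters, left-out libraries and a replicate block. Copies of members came from BLAST 2.17.0. The fits were tested on simulated counts with known changes. Depth was 12881945 to 22720009 estimated reads per library.

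The 42 members, the gene lists and the tests were chosen with earlier results of these data known. Named with values were the nuclear core and mt-Nd genes, and of each supernumerary series the 2 members with the smallest p and the 1 with the largest. Of each other list, the 2 called genes with the smallest p in each direction and the 1 with the largest p were named, and all other mitochondrially encoded proteins. Outside this rule, Ndufb4, Ndufb8, Ndufa9, Ecsit, Dmac1, Nubpl, Tmem126b, the cardiomyocyte genes, Gabpa and Ppargc1a were named after their values were seen. The assembly factor list held 1 symbol that was not matched.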

Additional observations from a re-analysis of the deposited data

How the results depend on the processing

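The number of nuclear complex I genes called lower, 23, moved by less than 1.5 times under RLE size factors, upper-quartile factors, DESeq2, limma-voom, both other filters on low counts, the bin reads, the copies summed and the removal of mitochondrial, haemoglobin and rRNA genes. It was 0 with library totals only, 0 on log2(TPM + 1), 0 on log2(TPM + 0.1), 3 with the length and GC trend removed and 0 without sham 2 and nano-TiO2 3 together, where each group had 2 libraries and 0 of all genes were called. Leaving out 1 library gave 8 to 17. The number called higher, 0, was 1 with library totals only, on log2(TPM + 1) and on log2(TPM + 0.1) (Ndufs1 each time), and 0 to 1 with 1 library left out. The nuclear median, -0.65, was -0.25 with library totals only, 0.0188 on log2(TPM + 1) and log2(TPM + 0.1) alike and -0.0915 with the trend removed, beside medians of all genes of 0.41, 0.47, 0.56 and -0.032. Leaving out 1 library gave -0.76 to -0.48. The number of mitochondrial genes called lower, 0, was 2 in DESeq2, 1 on log2(TPM + 1), 1 from bin reads and 1 with copies summed. Their median stayed below 0 in each alternative, from -0.89 to -0.38 with 1 library left out. The mitochondrial to nuclear log2 ratio difference ran from -0.31 to 0.08 with 1 library left out.

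Among the 24 members named by rule, the sign turned with the trend removed for Ndufs1 (-0.0198), Ndufs3 (0.10), Ndufs7 (0.17), Ndufs8 (0.0163), mt-Nd6 (0.12), Ndufv3 (0.18), Ndufb2 (0.0458), Ndufb7 (0.12) and Ndufb10 (0.32), and with library totals only for Ndufs3 (0.0575) and Ndufb10 (0.00818). On log2(TPM + 1) and log2(TPM + 0.1) alike it turned for Ndufs3 (0.32), Ndufs7 (0.0777 and 0.0778), Ndufv1 (0.13), Ndufv2 (0.0194 and 0.0195), mt-Nd5 (0.0126 and 0.0127), mt-Nd6 (0.0934 and 0.0936), Ndufs4 (0.0117 and 0.0118), Ndufa1 (0.20) and Ndufb10 (0.27). Of the members named outside the rule, Ndufb8 turned on log2(TPM + 1) (0.026) and without the trend (0.086), and Ndufa9 on log2(TPM + 1) (0.17). The cause was not tested.

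With the replicate number as a block, 17 nuclear genes were called lower, against 5.71% of all genes. The samples share only a number: same-numbered deviations correlated at -0.39, 0.02 and -0.08, and not every sample correlated best with its own number. The copies summed were an alternative chosen after seeing the data. Salmon gave mt-Nd3 at most 105 reads in a library and its copy 717 to 2257, while the bin table gave mt-Nd3 476 to 1599.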
